A study of Mus musculus with 12 samples.

Results

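The Wnt ligands, their receptors, their secreted antagonists and the main intracellular genes of the pathway were examined in mouse epididymal white adipose tissue. The set was chosen by gene name and holds 51 of the 23090 genes in the expression table. It has 19 Wnt ligands, 4 R-spondins, 10 Frizzled receptors, the co-receptors Lrp5 and Lrp6, 9 secreted inhibitors (Sfrp, Dkk and Wif1 genes) and 7 nuclear or cytoplasmic genes (Axin1, Axin2, Ctnnb1, Lef1, Tcf7, Tcf7l1 and Tcf7l2). RNA was sequenced from whole fat pads of 12 male C57BL/6J mice, 3 in each of 4 groups. All mice were 21 weeks old, had been housed singly and had eaten their diet for 16 weeks. The ND group received a normal diet, and the HFD group a high-fat diet. The other mice ate the same high-fat diet with 1.5% (w/w) ethanol extract of chrysanthemum leaf (CLE) or with 0.003% (w/w) luteolin (LU), a flavonoid of that plant. CLE and LU mice therefore shared the high-fat diet with the HFD group, and no group received either supplement on the normal diet. The sequenced mice were chosen as representative of larger groups, according to the methods of the study.

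Wnt proteins are secreted lipid-modified signals that bind a Frizzled receptor together with Lrp5 or Lrp6. In the canonical branch this stops the Axin scaffold from marking beta-catenin (Ctnnb1) for destruction, and beta-catenin then works with Tcf and Lef factors on target genes such as Axin2. Secreted Frizzled-related proteins (Sfrp) and Wif1 bind Wnt proteins outside the cell. Dickkopf (Dkk) proteins such as Dkk1 act at the co-receptors, and R-spondins raise the amount of receptor at the surface. In adipose tissue, canonical Wnt signals are known to hold back the formation of adipocytes, and Sfrp5 is a protein that adipocytes secrete.

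Expression was measured as FPKM, which scales fragments to the length of the transcript and to the number mapped in the library, and the transcripts of each gene were summed. Summed over genes, the libraries held 438191 to 458413 FPKM. Over all transcript rows, including those that entered no gene sum, they held 1290982 to 6409288 FPKM. FPKM do not keep the number of reads, and the depth of the libraries is therefore unknown. Across genes, libraries of the same group correlated at 0.979 to 0.992 (Pearson r). Markers of cell types differed between the diet groups. The 8 adipocyte markers summed to 32558 to 34145 FPKM in ND, 15095 to 17264 in HFD, 24817 to 27621 in CLE and 23751 to 29149 in LU, and 7 of 8 were called lower in HFD than in ND. The 8 macrophage markers summed to 319 to 485 FPKM in ND, 2230 to 2580 in HFD, 558 to 838 in CLE and 887 to 1016 in LU, and all 8 were called higher in HFD than in ND. Markers of endothelium, of stromal progenitors and of mesothelium, the outer cell layer of the fat pad, were detected in every group. Those of the epididymis epithelium summed to at most 7.28 FPKM, with 2 of 8 genes at 0 in all libraries. The part of these shifts in the Wnt results was not tested, and in whole tissue fewer cells of a type and less RNA per cell cannot be told apart.

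**Figure D1:**
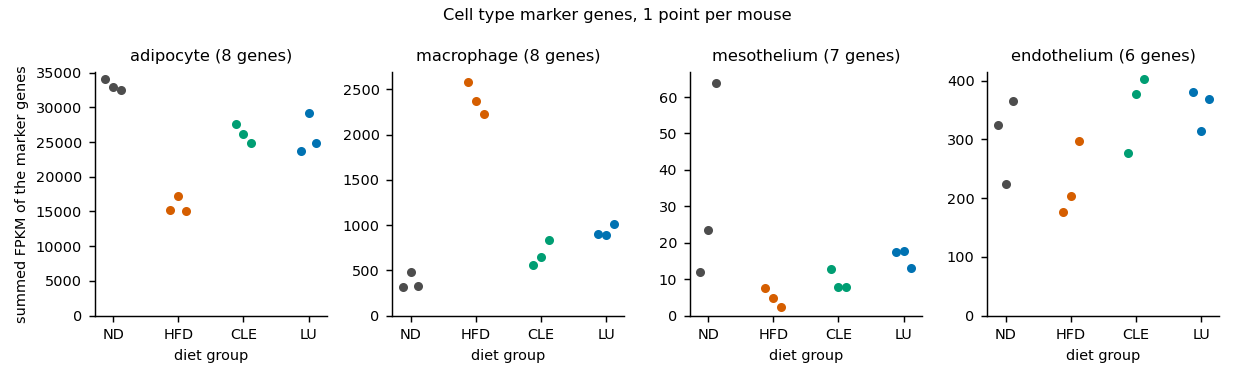
Summed FPKM of adipocyte, macrophage, mesothelium and endothelium marker genes (y axis, starting at 0) by diet group (x axis), with 1 point per mouse. The macrophage sum was 2230 to 2580 FPKM in HFD and at most 1016 FPKM in the other groups.

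A gene entered the tests when it reached at least 1 FPKM in at least 3 libraries, which 28 of the 51 genes did. The most abundant were Fzd4 (173 to 259 FPKM over the 12 libraries), Sfrp5 (46.6 to 335 FPKM) and Ctnnb1 (126 to 203 FPKM). Among the ligands, Wnt5a was the most abundant at 8.67 to 12.0 FPKM and made up 33.6% to 53.4% of the summed ligand level, followed by Wnt11 at 2.96 to 11.7 FPKM. The 23 genes below the filter were 13 ligands (Wnt1, Wnt2, Wnt3, Wnt3a, Wnt4, Wnt6, Wnt7a, Wnt7b, Wnt8a, Wnt8b, Wnt9b, Wnt10a and Wnt16), Rspo2, Rspo3, Rspo4, Fzd3, Fzd9, Fzd10, Dkk1, Dkk2, Dkk4 and Lef1. The highest value among them was 1.15 FPKM, for Wnt8b. Lef1, a DNA-binding partner of beta-catenin, did not exceed 0.395 FPKM. Dkk4 and Wnt7a were listed at 0 in every library.

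**Figure D2:**
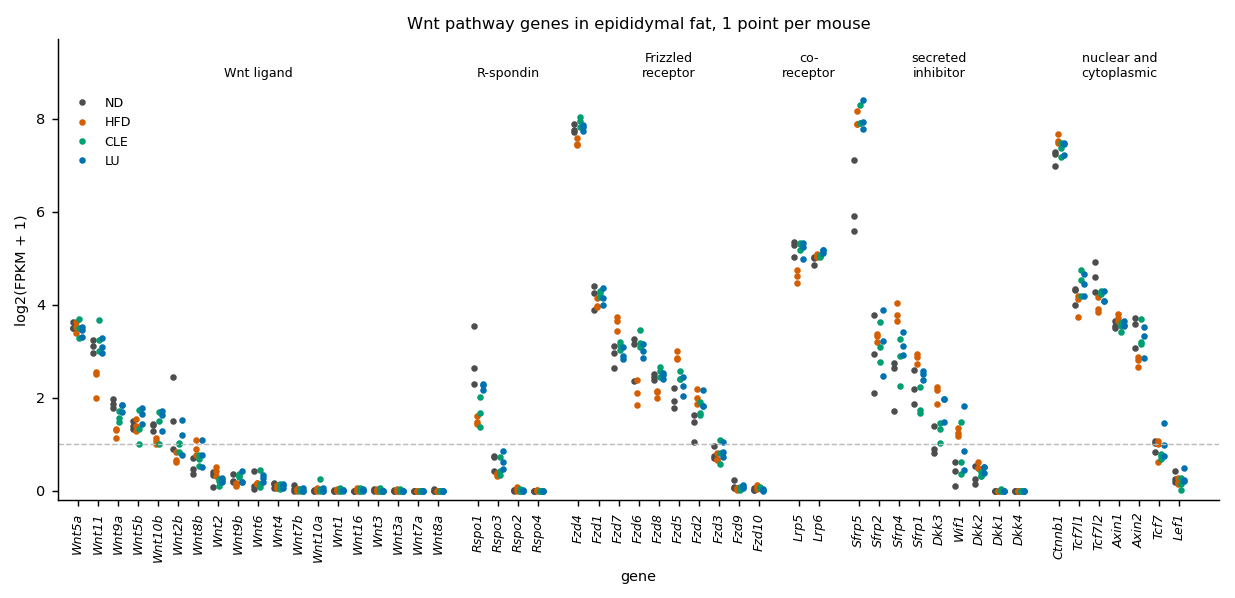
Level of all 51 genes as log2(FPKM + 1) (y axis), ordered within each role by their median (x axis), with 1 point per mouse coloured by diet group. The dashed line is at 1 FPKM. Fzd4, Ctnnb1 and Sfrp5 lie above the rest, and the ND points of Sfrp5 lie below those of the other groups.

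The groups were compared with limma on log2(FPKM + 1). To be called, a gene needed a fold change over 1.5 and a p, adjusted by Benjamini-Hochberg over all 12803 tested genes, under 0.05. All differences are given on that log scale, where the added 1 shrinks the change of genes with low levels. Of the 28 tested genes, 16 were called in at least 1 of the 6 comparisons. In HFD against ND, 8 were called higher and 8 lower, where 14.9% and 10.8% of all tested genes were called. Both shares of the 28 genes were therefore above those of all genes, without a test of that difference. In CLE against HFD, 3 were called higher and 3 lower (6.34% and 10.2% of all tested genes), and in LU against HFD 2 higher and 2 lower (4.77% and 7.68%). These shares of the set were near the background. The groups did not overlap for 11 of the 28 genes higher and 10 lower in HFD against ND (30.2% and 29.4% of all tested genes), 9 and 7 in CLE against HFD (24.3% and 26.2%) and 10 and 6 in LU against HFD (25.6% and 22.1%). The median log2 fold change of the 28 genes was -0.05, 0.03 and 0.15 in these 3 comparisons, against -0.02, 0.01 and 0.03 over all tested genes. The comparisons share the HFD mice, so a value that is high or low in HFD enters all 3 of them.

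The direction of the HFD against ND calls differed between roles, a contrast that was not tested. Of all tested genes, 14.9% were called higher and 10.8% lower. Of the 6 tested secreted inhibitors, 5 were called higher and 0 lower. One of these, Wif1, passed the filter only through the 3 HFD mice, and among the 5 inhibitors that pass without them 4 were called higher. Of the 7 tested Frizzled receptors, 3 were called higher and 1 lower. In contrast, 0 of the 6 tested ligands were called higher and 3 were called lower, as were Rspo1, Lrp5, Axin2 and Tcf7l2. With the letter R as a covariate, the calls of Sfrp1, Wif1, Wnt2b, Wnt11 and Lrp5 were lost. Those of Axin2 and Tcf7l2 were lost when transcripts assembled as variants were left out. Apcdd1, an inhibitor outside the set, was called lower.

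**Figure D3:**
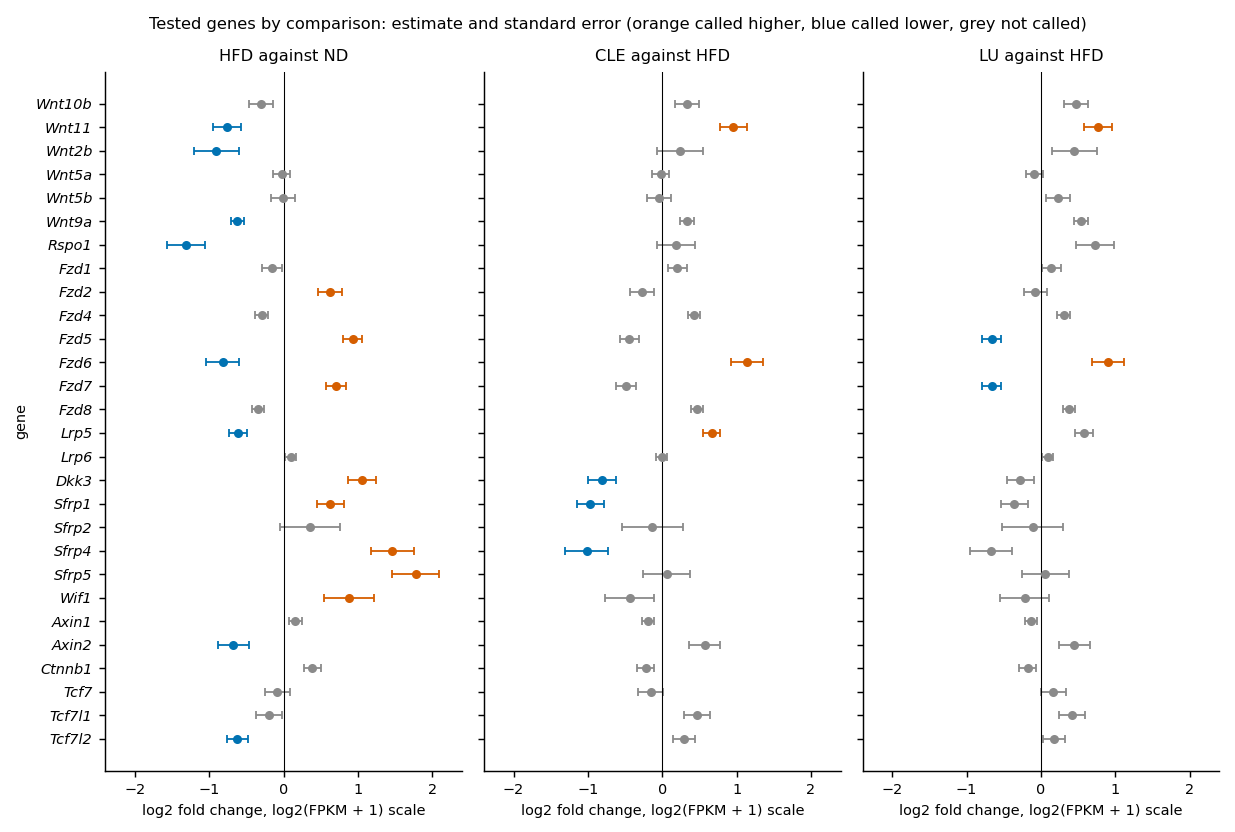
Log2 fold change (x axis, log2(FPKM + 1) scale) of the 28 tested genes (y axis, ordered by role) in HFD against ND, CLE against HFD and LU against HFD. Points are limma estimates and bars are standard errors, orange marks genes called higher, blue marks genes called lower and grey marks genes not called. In the first panel Sfrp5, Sfrp4, Dkk3, Sfrp1 and Wif1 are orange, and Wif1 passed the filter only through the HFD mice.

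Sfrp5, the secreted inhibitor that adipocytes are known to release, showed the largest change among the 28 genes in HFD against ND. It lies at chr19:42197971-42202252 on the minus strand (GRCm38), and 99.98% of its level came from the full-length protein-coding transcript Sfrp5-201. The 250 bases before its start, at chr19:42202253-42202502 on the minus strand (RefSeq, GRCm38.p6), are shown because the gene carries most of the inhibitor signal in this tissue.
Sfrp5 promoter: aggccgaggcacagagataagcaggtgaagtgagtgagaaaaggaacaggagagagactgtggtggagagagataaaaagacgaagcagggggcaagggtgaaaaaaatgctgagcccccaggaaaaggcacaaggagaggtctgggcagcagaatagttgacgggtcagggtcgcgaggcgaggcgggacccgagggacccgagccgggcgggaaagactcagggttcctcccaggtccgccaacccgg
Its level was 59.0, 46.6 and 137 FPKM in ND mice 2, 3 and 4. It was 285, 235 and 235 FPKM in HFD mice 12, 15 and 18, 239.7, 238 and 314 FPKM in CLE mice 2, 4 and 11, and 219.5, 242 and 335 FPKM in LU mice 2, 3 and 8. Every mouse on the high-fat diet, supplemented or not, was above every ND mouse, and the HFD, CLE and LU groups overlapped. Sfrp5 rose by 1.78 on the log2 scale in HFD against ND (SE 0.32, adjusted p = 0.000732, limma), 3.43-fold. It was also called higher in CLE against ND (log2 1.84, adjusted p = 0.0145) and in LU against ND (log2 1.84, adjusted p = 0.00439). The difference from HFD was 0.06 in CLE (95% interval -0.63 to 0.76) and 0.06 in LU (-0.63 to 0.75), and both intervals reach past the fold limit of 1.5 in either direction. The CLE against ND call was lost without ND mouse 2 (adjusted p = 0.0504) and without CLE mouse 11 (adjusted p = 0.0504).

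Sfrp4, a related Wnt-binding protein, was 2.26, 5.20 and 5.67 FPKM in ND and 11.5, 15.3 and 12.8 FPKM in HFD. In CLE it was 8.65, 6.397 and 3.78 FPKM, and in LU 9.60, 7.68 and 6.58 FPKM. The HFD mice were the highest 3, and ND overlapped with CLE but not with LU. Sfrp4 rose in HFD against ND by 1.46 on the log2 scale (SE 0.29, adjusted p = 0.00143) and fell in CLE against HFD by 1.02 (SE 0.29, adjusted p = 0.0184). In LU against HFD it missed the threshold. Without CLE mouse 11 the CLE difference was -0.74 (adjusted p = 0.0638), and without HFD mouse 15 it was -0.91 (adjusted p = 0.0654), so that call rested on these mice.

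Sfrp1, which also binds Wnt proteins, was 5.09, 3.55 and 2.65 FPKM in ND and 6.29, 6.69 and 5.62 FPKM in HFD. The CLE mice had 2.196, 3.69 and 2.32 FPKM and the LU mice 4.22, 4.92 and 4.66 FPKM. No HFD mouse overlapped with another group, and the CLE mice lay among or below the ND mice. It was called higher in HFD against ND (log2 0.63, SE 0.18, adjusted p = 0.0137) and lower in CLE against HFD (log2 -0.97, SE 0.18, adjusted p = 0.00191). The first call was lost without ND mouse 4 (log2 0.45) and without HFD mouse 15 (log2 0.58). The letter R as a covariate (log2 0.58, adjusted p = 0.0533) and quantile normalization (log2 0.55) also ended it. The CLE call was kept in every alternative in which Sfrp1 was tested, which leaves out the filter of a mean FPKM of at least 5.

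Dkk3, a more distant member of the Dickkopf family that was grouped with the inhibitors by name, was low but changed in the same 2 comparisons. Its level was 0.856, 0.768 and 1.63 FPKM in ND, 2.64, 3.71 and 3.50 FPKM in HFD, 1.52, 1.76 and 1.05 FPKM in CLE and 1.795, 2.94 and 2.94 FPKM in LU. All HFD mice were above all ND and CLE mice, and LU overlapped with HFD. Dkk3 rose by 1.05 in HFD against ND (SE 0.19, adjusted p = 0.000724) and fell by 0.81 in CLE against HFD (SE 0.19, adjusted p = 0.00633). Both calls were kept in every alternative in which Dkk3 was tested, which leaves out the filter of a mean FPKM of at least 5. It was also called higher in LU against ND (log2 0.78, adjusted p = 0.0203). That call was lost when ND mouse 2, ND mouse 3, LU mouse 3 or LU mouse 8 was left out (log2 0.70, 0.67, 0.69 and 0.69).

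Wif1, a secreted protein that binds Wnt ligands, was close to the detection limit. It was 0.0730, 0.525 and 0.336 FPKM in ND, 1.53, 1.38 and 1.26 FPKM in HFD, 0.289, 0.529 and 1.79 FPKM in CLE and 0.362, 0.808 and 2.53 FPKM in LU. HFD lay above ND without overlap, and the CLE and LU mice spread across both. It reached 1 FPKM in all 3 HFD mice and in only 2 of the others, so it was tested because of the group in which it was high. It was called higher in HFD against ND (log2 0.88, SE 0.33, adjusted p = 0.0438), but leaving out any ND or HFD mouse ended this call, at log2 values of 0.74 to 1.00. With the letter R as a covariate the call was lost as well (log2 0.70, adjusted p = 0.164). Only 1.47% of its level came from the full-length transcript Wif1-201, and nearly all the rest from shorter rows at the 3′ end of the gene. Sfrp2, the remaining tested inhibitor, overlapped between all groups (3.30 to 13.8 FPKM) and was called in none of the comparisons.

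The summed level of the 9 inhibitors was 60.4 to 161 FPKM in ND, 267 to 317 in HFD, 260.3 to 329 in CLE and 244 to 357 in LU. Sfrp5 made up 77.2% to 95.4% of this sum. Without Sfrp5 the sum was 13.8 to 23.3 FPKM in ND, 31.7 to 36.6 in HFD, 15.05 to 23.9 in CLE and 21.6 to 30.4 in LU. Thus the CLE mice stood with the HFD mice by the full sum and with the ND mice by the sum without Sfrp5, and in the latter the LU mice overlapped with ND and CLE and lay below HFD.

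**Figure D4:**
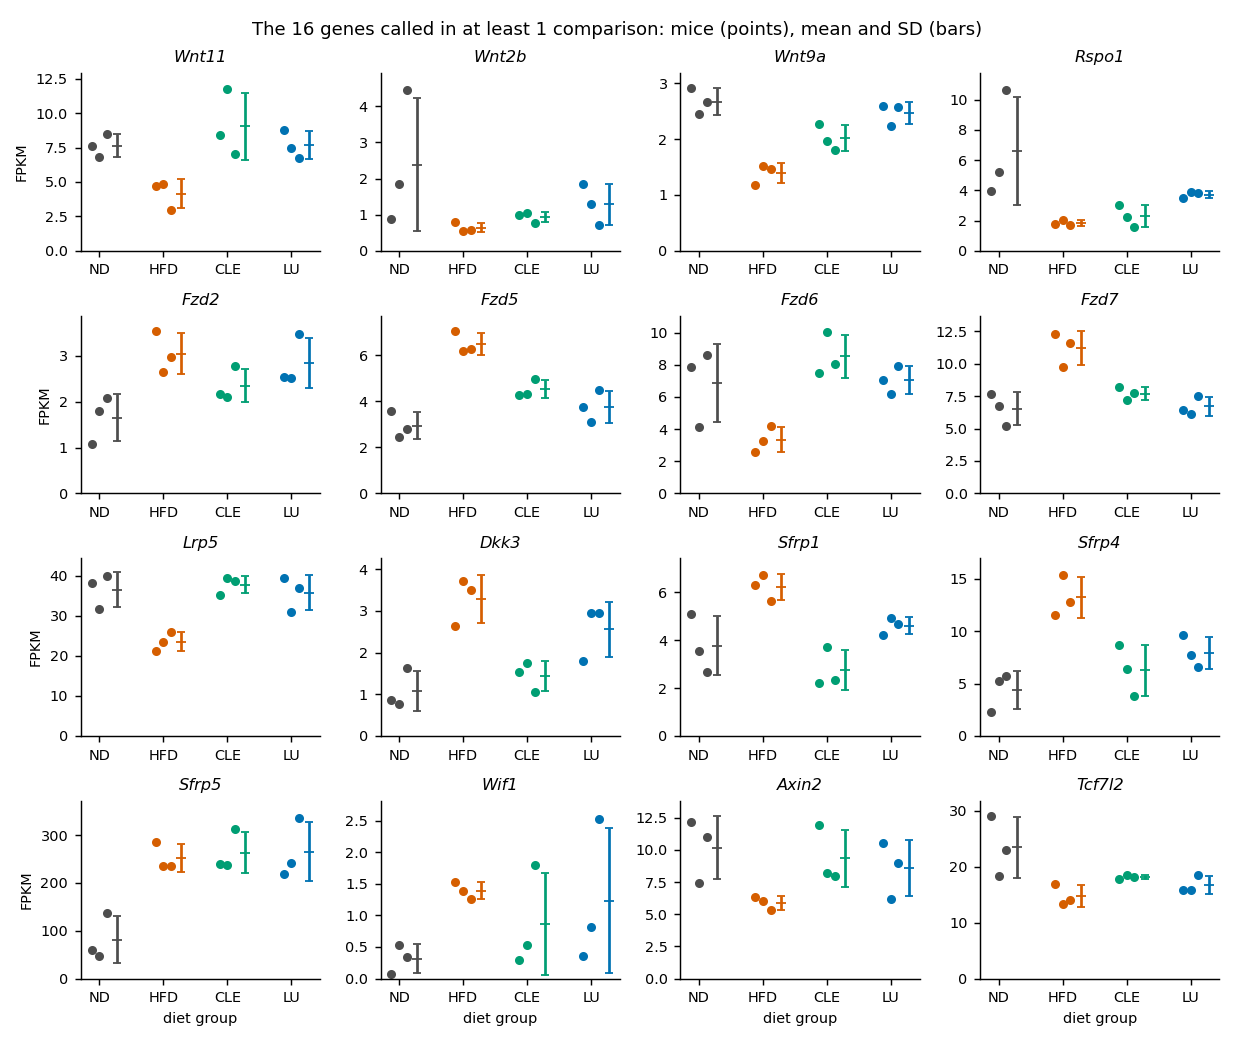
FPKM (y axis, starting at 0) of the 16 genes called in at least 1 comparison, by diet group (x axis). Points are mice, and bars give the mean and SD of 3 mice. Sfrp5 is higher in all 3 high-fat groups than in ND, whereas Wnt11, Lrp5 and Fzd7 are shifted in HFD and near ND in CLE and LU.

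Among the ligands, Wnt11, which mostly signals without beta-catenin, was called in all 3 comparisons with HFD. It was 7.63, 6.83 and 8.46 FPKM in ND, 4.68, 4.84 and 2.96 FPKM in HFD, 8.41, 11.7 and 7.004 FPKM in CLE and 8.78, 7.48 and 6.77 FPKM in LU. The HFD mice were the lowest 3 of the 12, and the other groups overlapped with each other. Wnt11 fell in HFD against ND by 0.76 on the log2 scale (SE 0.18, adjusted p = 0.00512). It was higher in CLE than in HFD by 0.96 (SE 0.18, adjusted p = 0.00220) and higher in LU than in HFD by 0.76 (SE 0.18, adjusted p = 0.0107). Without HFD mouse 18 the HFD against ND and LU against HFD differences were -0.58 and 0.58, just under the fold limit. With the letter R as a covariate the HFD against ND difference was also -0.58 and not called.

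Wnt11 lies at chr7:98835112-98855195 on the plus strand (GRCm38), and its transcripts begin at either of 2 separate starts. RefSeq has a promoter for each, and both are shown because the transcript rows could be grouped by their start. In the upstream one, capitals mark a match to the TCF/LEF motif CTTTGAT on the opposite strand, 51 bases before the start.
Wnt11 upstream promoter, chr7:98834862-98835111, plus strand (GRCm38.p6): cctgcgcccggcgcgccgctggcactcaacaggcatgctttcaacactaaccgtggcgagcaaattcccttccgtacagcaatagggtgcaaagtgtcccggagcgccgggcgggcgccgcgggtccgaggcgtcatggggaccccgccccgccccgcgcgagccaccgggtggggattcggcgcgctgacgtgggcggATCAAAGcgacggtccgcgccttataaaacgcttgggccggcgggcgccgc
Wnt11 downstream promoter, chr7:98838595-98838844, plus strand (GRCm38.p6): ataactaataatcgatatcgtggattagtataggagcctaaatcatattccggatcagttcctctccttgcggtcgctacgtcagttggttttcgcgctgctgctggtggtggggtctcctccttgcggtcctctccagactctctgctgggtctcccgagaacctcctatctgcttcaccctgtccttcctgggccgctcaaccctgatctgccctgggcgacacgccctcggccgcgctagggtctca
The 7 rows that start within 1000 bases of the upstream start held 57.2% of the Wnt11 level. They summed to 4.33 to 4.84 FPKM in ND, 1.77 to 2.42 in HFD, 3.93 to 6.50 in CLE and 3.12 to 5.08 in LU. The 2 rows at the downstream start summed to 2.49 to 3.62 FPKM in ND, 1.19 to 2.42 in HFD, 3.07 to 5.23 in CLE and 2.72 to 3.70 in LU. At both starts the HFD mice were the lowest, without overlap with the other groups. Both sums come from the same gene and mice, so they do not count as separate observations.

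The motif CTTTGAT, searched on both strands of the 300-base windows from 250 bases before to 50 after each start, was found in 2 of 43 windows of the 34 genes of the set that have RefSeq promoters. These windows were the upstream one of Wnt11 and one of Wnt5b, whose level (1.01 to 2.44 FPKM) was called in no comparison. Of all 32851 promoter windows, 3.73% held the motif, against 4.65% of the 43 windows of the set. CG dinucleotides were more frequent in the windows of the set (median 27) than in all windows (median 7).

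Wnt9a, a canonical ligand, was 2.91, 2.44 and 2.66 FPKM in ND, 1.19, 1.52 and 1.46 FPKM in HFD, 2.26, 1.97 and 1.801 FPKM in CLE and 2.595, 2.24 and 2.58 FPKM in LU. The HFD mice were again the lowest 3, and CLE lay between HFD and ND without overlap with either. Wnt9a fell in HFD against ND by 0.62 (SE 0.09, adjusted p = 0.000214). In CLE against HFD the difference was 0.33 (adjusted p = 0.0167) and in LU against HFD 0.54 (adjusted p = 0.00174), both under the fold limit. Without ND mouse 2 or HFD mouse 12, the HFD against ND difference also slipped under that limit, at -0.57 and -0.56.

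Wnt2b was 0.873, 1.84 and 4.44 FPKM in ND, 0.796, 0.542 and 0.586 FPKM in HFD, 0.9948, 1.04 and 0.772 FPKM in CLE and 1.85, 1.28 and 0.712 FPKM in LU. The ND mice differed widely among themselves, and the lowest ND mouse was close to the highest HFD mouse. Wnt2b was called lower in HFD against ND (log2 -0.91, SE 0.30, adjusted p = 0.0269). The call was lost without ND mouse 4 (log2 -0.49, adjusted p = 0.0807), without HFD mouse 15 (-0.86) and without HFD mouse 18 (-0.88). The letter R as a covariate also ended it (log2 -0.53, adjusted p = 0.157). An antisense row at Wnt2b held 0.618 to 1.35 FPKM. The library kit as described keeps no strand, so reads of the gene and of this row cannot be told apart.

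Wnt5a, a ligand of the non-canonical branch, overlapped between all groups. Its difference in HFD against ND was -0.03 (95% interval -0.27 to 0.22). Wnt10b, a ligand known to restrain adipogenesis, was 1.42, 1.65 and 1.69 FPKM in ND, 1.18, 1.01 and 1.11 FPKM in HFD, 1.83, 2.24 and 1.01 FPKM in CLE and 2.10, 2.26 and 1.44 FPKM in LU. It was not called, although HFD lay below both ND and LU without overlap. In LU against HFD the difference was log2 0.47 (adjusted p = 0.0473), under the fold limit. The summed ligand level was 25.5 to 30.1 FPKM in ND, 19.6 to 23.1 in HFD, 22.1 to 30.9 in CLE and 25.3 to 29.0 in LU.

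Rspo1 was the only R-spondin to pass the filter and made up 76.9% to 96.8% of the summed R-spondin level. It was 3.93, 5.19 and 10.6 FPKM in ND, 1.79, 2.06 and 1.71 FPKM in HFD, 3.06, 2.21 and 1.59 FPKM in CLE and 3.46, 3.89 and 3.80 FPKM in LU. ND lay above every other group, and CLE overlapped with HFD. Rspo1 fell in HFD against ND by 1.31 (SE 0.26, adjusted p = 0.00130). That call was kept in every alternative in which Rspo1 was tested, which leaves out the filter of a mean FPKM of at least 5. Rspo1 was also lower in CLE than in ND by log2 -1.13 (SE 0.26, adjusted p = 0.0318). The CLE against ND call was lost without ND mouse 3, CLE mouse 4, CLE mouse 11 or HFD mouse 18 (log2 -1.23, -1.13, -0.97 and -1.13). The letter R as a covariate ended this call too (log2 -1.06, adjusted p = 0.0559). The 7 mesothelium markers summed to 12.0, 23.4 and 63.8 FPKM in ND mice 2, 3 and 4, 2.34 to 7.68 in HFD, 7.71 to 12.7 in CLE and 13.1 to 17.8 in LU. ND mouse 4 was the highest mouse for these markers, for Rspo1 and for Wnt2b, and 5 of the 7 markers were called lower in HFD than in ND. Of the 7, Krt8 and Upk1b reached 1 FPKM in fewer than 3 libraries outside ND. The part of mesothelial RNA in these values was not tested.

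Fzd4, a receptor for Wnt proteins and for norrin, held 80.1% to 86.3% of the summed Frizzled level. It was 209.9, 216 and 236 FPKM in ND, 192, 173 and 175 FPKM in HFD, 244, 259 and 224 FPKM in CLE and 232, 212 and 225 FPKM in LU. The HFD mice were the lowest 3. The differences had adjusted p under the threshold but stayed under the fold limit, with log2 -0.29 in HFD against ND (adjusted p = 0.0148), 0.43 in CLE against HFD (adjusted p = 0.00299) and 0.31 in LU against HFD. Fzd8 behaved in the same directions, at log2 -0.34, 0.47 and 0.38, and was likewise not called.

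Fzd5, Fzd7 and Fzd2 were called higher in HFD against ND. Fzd5 was 3.60, 2.44 and 2.80 FPKM in ND, 7.04, 6.17 and 6.25 FPKM in HFD, 4.28, 4.31 and 4.96 FPKM in CLE and 3.74, 3.08 and 4.47 FPKM in LU. All HFD mice were above all others, and the CLE mice were above the ND mice. Fzd5 rose by 0.93 in HFD against ND (SE 0.13, adjusted p = 0.000118) and fell by 0.66 in LU against HFD (SE 0.13, adjusted p = 0.00354). In CLE against HFD the difference was -0.44, under the fold limit. The LU call was lost without LU mouse 3 (log2 -0.55).

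Fzd7 was 7.67, 6.75 and 5.21 FPKM in ND, 12.3, 9.75 and 11.6 FPKM in HFD, 8.18, 7.20 and 7.71 FPKM in CLE and 6.41, 6.15 and 7.55 FPKM in LU. The HFD mice stood above the other 3 groups, which overlapped. It rose by 0.70 in HFD against ND (SE 0.13, adjusted p = 0.000891) and fell by 0.67 in LU against HFD (SE 0.13, adjusted p = 0.00354). The CLE against HFD difference of -0.49 (adjusted p = 0.0132) was under the fold limit. Without ND mouse 4 the HFD against ND difference was 0.57, under the fold limit. Without the libraries that carry the letter R, which leaves ND mouse 2 alone in its group, this difference was 0.49. Fzd2 was 1.08, 1.79 and 2.09 FPKM in ND, 3.53, 2.64 and 2.97 FPKM in HFD, 2.17, 2.11 and 2.77 FPKM in CLE and 2.54, 2.51 and 3.47 FPKM in LU. ND lay below all high-fat groups. It was called only in HFD against ND (log2 0.62, SE 0.16, adjusted p = 0.00601), and not without ND mouse 2 (log2 0.46) or HFD mouse 12 (log2 0.54).

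Fzd6, known from planar cell polarity, moved in the other direction. It was 7.87, 4.12 and 8.64 FPKM in ND, 2.58, 3.29 and 4.18 FPKM in HFD, 7.51, 10.05 and 8.03 FPKM in CLE and 7.05, 6.20 and 7.93 FPKM in LU. ND mouse 3 fell within the HFD range, whereas CLE and LU lay above HFD without overlap. Fzd6 fell in HFD against ND by 0.82 (SE 0.22, adjusted p = 0.00881) and was higher in CLE than in HFD by 1.14 (SE 0.22, adjusted p = 0.00218), the largest rise of the set in that comparison. In LU against HFD it was higher by 0.90 (SE 0.22, adjusted p = 0.0111), a call lost without HFD mouse 12 (log2 0.77, adjusted p = 0.0506). Fzd1 overlapped between ND and HFD (13.8 to 20.2 FPKM over all libraries) and was not called.

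Of the co-receptors, Lrp5 was 38.1, 31.7 and 39.8 FPKM in ND, 21.1, 23.6 and 25.8 FPKM in HFD, 35.3, 39.4 and 38.6 FPKM in CLE and 39.4, 30.8 and 37.0 FPKM in LU. The HFD mice were the lowest 3, and the other groups overlapped. Lrp5 fell in HFD against ND by 0.61 (SE 0.12, adjusted p = 0.00123) and was higher in CLE than in HFD by 0.66 (SE 0.12, adjusted p = 0.00135). In LU against HFD the difference was 0.58 (adjusted p = 0.00451), just under the fold limit. The HFD against ND value was -0.58, -0.55 and -0.54 without ND mouse 2, ND mouse 4 and HFD mouse 12, which ended the call. With the letter R as a covariate it was -0.57, also not called. The most abundant Lrp5 transcript alone gave 0.96 (adjusted p = 0.207) in HFD against ND. For that transcript the CLE against HFD call was lost as well (log2 0.54, adjusted p = 0.542). Lrp6, in contrast, stayed within 28.02 to 35.2 FPKM, with a difference in HFD against ND of 0.10. Lrp5 made up 53.1% to 56.0% of the summed co-receptor level in ND and 38.9% to 44.9% in HFD.

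Axin2, a target and feedback inhibitor of canonical signalling, was 12.1, 7.41 and 10.97 FPKM in ND, 6.36, 6.03 and 5.29 FPKM in HFD, 11.9, 8.22 and 7.94 FPKM in CLE and 10.5, 6.21 and 8.98 FPKM in LU. HFD lay below ND and CLE and overlapped with LU. It was called lower in HFD against ND (log2 -0.67, SE 0.21, adjusted p = 0.0178), and in CLE against HFD the difference of 0.57 missed the threshold (adjusted p = 0.0527). This direction rested on transcripts that the authors assembled from the reads as variants of known ones (class j). These rows summed to 6.34 to 7.50 FPKM in ND and 1.82 to 3.17 in HFD, whereas the Ensembl transcripts summed to 1.07 to 4.65 FPKM in ND and 2.86 to 3.74 in HFD. Without the class j rows the difference was 0.19 (adjusted p = 0.685). The call was also lost without ND mouse 2, ND mouse 4 or HFD mouse 18 (log2 -0.54, -0.61 and -0.61).

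Tcf7l2, a DNA-binding partner of beta-catenin, was 29.2, 18.3 and 23.1 FPKM in ND, 16.9, 13.3 and 14.0 FPKM in HFD, 17.8, 18.6 and 18.1 FPKM in CLE and 15.8, 15.8 and 18.6 FPKM in LU. All ND mice were above all HFD mice, and CLE lay around the lowest ND mouse and LU overlapped with HFD. It was called lower in HFD against ND (log2 -0.62, SE 0.15, adjusted p = 0.00439). Its level was spread over 42 transcript rows, and the difference was -0.36 without class j rows and 0.054 for its most abundant transcript alone, neither of them called. Without ND mouse 2 or HFD mouse 15 it was -0.46 and -0.55, under the fold limit.

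**Figure D5:**
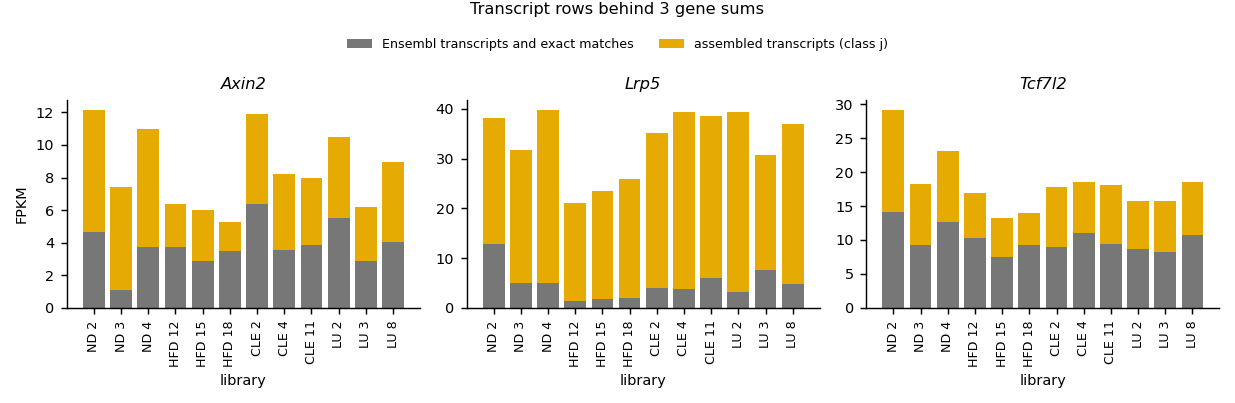
FPKM (y axis) of Axin2, Lrp5 and Tcf7l2 in each library (x axis), split into Ensembl transcripts with exact matches (grey) and assembled transcripts of class j (yellow), stacked. For Axin2 the lower HFD level lies in the assembled rows, at 1.82 to 3.17 FPKM against 6.34 to 7.50 FPKM in ND.

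Ctnnb1, which encodes beta-catenin, was 151, 126 and 155 FPKM in ND and 178, 183 and 203 FPKM in HFD, without overlap. The difference of 0.39 had an adjusted p of 0.0143 but stayed under the fold limit, and CLE (143 to 176 FPKM) and LU (149 to 176 FPKM) overlapped with ND. Axin1 (9.63 to 12.9 FPKM), Tcf7 (0.530 to 1.76 FPKM) and Tcf7l1 (12.4 to 25.9 FPKM) were called in no comparison. For Axin1 only its own 6 rows were summed, because 4 further rows under its name are transcripts of its neighbour Mrpl28, at 17.0 to 28.2 FPKM.

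CLE and LU were compared directly. None of the 28 genes was called by limma, and the smallest adjusted p was 0.897. An unadjusted limma p under 0.05 was found for 3 of the 28 (Sfrp1, Dkk3 and Wnt9a, all lower in CLE), against 5.23% of all tested genes. Over all tested genes 0% were called higher and 0.00781% lower. CLE and LU did not overlap for 0 genes of the set higher and 4 lower, against 2.7% and 6.3% of all tested genes. For Sfrp1 the difference was -0.60 (95% interval -1.003 to -0.21) and for Dkk3 -0.54 (-0.95 to -0.13). The intervals for Wnt11 (-0.21 to 0.60), Lrp5 (-0.18 to 0.34) and Sfrp5 (-0.69 to 0.70) include 0, with the widest for Sfrp5 of these 3. The median standard error of the 28 genes was 0.161. Differences of the size of the fold limit could be missed in this comparison, since that of Sfrp1 was past the limit and not called.

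Against ND, CLE had 1 gene called higher (Sfrp5) and 1 lower (Rspo1), where 2.11% and 0.875% of all tested genes were called. LU had 2 called higher (Sfrp5 and Dkk3) and 0 lower, where the shares were 4.99% and 1.59%. Unadjusted limma p-values under 0.05 were found for 7 of the 28 genes in each of these comparisons, near the share over all tested genes (23.3% for CLE and 27.7% for LU).

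Further genes of the pathway were followed under 58 names, of which 55 were in the table. The other names, Tle5, Wisp1 and Wisp2, are synonyms of the listed Aes, Ccn4 and Ccn5. Of the genes found, 41 passed the filter. In HFD against ND 3 of the 41 were called higher and 1 lower, fewer than the 14.9% and 10.8% of all tested genes would give. In CLE against HFD 2 were called higher and 0 lower (6.34% and 10.2% of all tested genes), and in LU against HFD 1 higher and 0 lower (4.77% and 7.68%). Against ND, CLE and LU each had 1 called higher and 0 lower, where 2.11% and 0.875% (CLE) and 4.99% and 1.59% (LU) of all tested genes were called. The CLE gene was Tle3, listed as a nuclear partner, at 70.9, 56.2 and 58.3 FPKM in ND and 113, 89.8 and 98.8 FPKM in CLE. The LU gene was Ccn5. Apcdd1, a membrane inhibitor of Wnt signalling, was 136, 131 and 156 FPKM in ND, 78.4, 76.3 and 72.3 FPKM in HFD, 174, 142 and 131 FPKM in CLE and 128, 133 and 121 FPKM in LU. It was the only inhibitor of the list called lower in HFD against ND (log2 -0.89, adjusted p = 5.60e-05) and was higher in CLE than in HFD (log2 0.96) and in LU than in HFD (log2 0.74). Ccn5, counted as a common Wnt target, was 16.1, 7.31 and 56.4 FPKM in ND and 163, 108 and 132 FPKM in HFD (log2 2.73, SE 0.57, adjusted p = 0.00216). In CLE it was 73.8, 77.5 and 125 FPKM and in LU 79.6, 92.5 and 210.2 FPKM, with no overlap between ND and any high-fat group. Nkd1, an intracellular antagonist of Dishevelled, rose by 1.00 in HFD against ND (adjusted p = 0.00221), from 9.41 to 13.1 FPKM in ND to 21.5 to 23.6 FPKM in HFD. Lrp4 was also called higher there (log2 0.68), but it reached 1 FPKM only in the 3 HFD mice (1.30 to 1.48 FPKM) and so was tested because of the group in which it was high. Porcn, which lipidates Wnt proteins, was called in CLE against HFD only (log2 0.63). Of the common targets, Ccnd1 (8.29 to 28.3 FPKM) and Myc (4.51 to 12.8 FPKM) were not called.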

How the data were processed

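Libraries were made with the TruSeq RNA kit from poly(A) RNA and sequenced as 100-base pairs. According to the submitters' processing notes, CASAVA 1.8.2, Bowtie2 2.2.3, TopHat2 2.0.12 and Cufflinks 2.2.1 were used; their order and the genome build are not given in the sources used here. The authors deposited FPKM values for 152210 transcripts, known ones from Ensembl and others assembled from the reads, and no read counts. A further 3 FPKM columns carry names of none of these samples and stayed unused. The header MD4 was taken, by inference, for ND mouse 4. Columns that hold the authors' own fold changes and p-values between groups were not used.

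Transcript rows were summed per gene by GENCODE M21 (GRCm38), in which 77000 of 78786 known transcripts were found. For the Wnt genes, 255 rows entered (known transcripts, exact matches and class j), and 17 rows under their names were left out for their class. Values were tested as log2(FPKM + 1) with limma 3.58.1 (R 4.3.3), all 12 libraries in 1 fit with a coefficient per group, without trend or covariate, and with Benjamini-Hochberg adjustment over 12803 genes. The authors' count test was not repeated because the values are FPKM. The procedure was tested on simulated data. Members called in at least 1 comparison are given with the value of every mouse. The members, lists and comparisons were chosen with earlier results of these data known. Each library is 1 mouse. Tables and plots were made with Python 3.11.15, pandas 2.3.3, numpy 2.4.6 and matplotlib 3.10.9. Alternatives were another pseudocount, filter, normalization, transcript set or covariate, and the omission of single mice.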

Additional observations from a re-analysis of the deposited data

Results flagged for a closer look

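Rows left out of the gene sums for their class were above every ND mouse in a high-fat group for 3 genes. Such a separation from ND was common. Over all tested genes, 30.2% lay higher than ND without overlap in HFD, 13.3% in CLE and 18.5% in LU. Antisense rows at Axin2 held at least 0.656 FPKM in every LU mouse, against at most 0.615 FPKM in ND. Rows that overlap Fzd7 held at least 0.429 FPKM in every HFD mouse, against at most 0.191 FPKM in ND. A row that overlaps Fzd4 held at least 0.00015 FPKM in every LU mouse, far below the filter on low values.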

How the results depend on the processing

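The direction of every called difference was kept when any 1 mouse was left out. For a mouse of neither compared group this was fixed in advance, because its omission changes only the estimate of the spread. Of the 360 leave-one-out values, 318 kept their call. In the other settings 342 of 382 did, 36 kept their direction but lost the call, and 4 reversed: in HFD against ND, Axin2 was 0.19 without class j rows and 0.059 (adjusted p = 0.956) for its most abundant transcript, Lrp5 was 0.96 (adjusted p = 0.207) and Tcf7l2 0.054 (adjusted p = 0.929) for theirs. The cause was not tested. The direction was also fixed in advance in the settings that leave the estimates unchanged. These were the changed filters, only the groups compared, limma with trend and adjusted p alone. Of the counts of called Wnt genes, those for HFD against ND (8 higher, 8 lower) became 3 and 5 at a mean FPKM of at least 5, where fewer genes were tested. The higher count was 5 without the 4 libraries whose column heads carry a letter R, a setting that leaves ND mouse 2 alone in its group, with its spread assumed to be that of the other groups. The lower count was 5 with R as a covariate and 4 with the most abundant transcript. The setting with adjusted p alone can add calls but cannot lose them. With it, CLE against HFD gave 6 and 5, LU against HFD gave 7 higher, and CLE against ND gave 2 higher. A mean FPKM of at least 5 left 1 lower gene in CLE against HFD and in LU against HFD. A pseudocount of 0.1 gave 6 higher in LU against HFD. The 2 calls of CLE against ND became 0 without a filter and with only the groups compared, and the lower one also became 0 at a mean of at least 5, with R as a covariate and with the most abundant transcript. LU against ND had 1 higher gene in place of 2 without a filter, at a mean of at least 5, with only the groups compared, without class j rows and with the most abundant transcript. Leaving out each mouse in turn gave 5 to 8 higher and 4 to 8 lower in HFD against ND (lowest without ND mouse 4 and ND mouse 2), 3 to 4 and 2 to 3 in CLE against HFD, 1 to 4 and 1 to 3 in LU against HFD (1 higher without HFD mouse 12, and 4 higher and 1 lower without LU mouse 3), 0 to 1 for both directions in CLE against ND, and 1 to 3 and 0 to 1 in LU against ND. Mouse numbers are shared between ND, CLE and LU, but same-numbered mice did not deviate together (correlations of -0.10 to 0.19). With the number as a replicate block, the counts were 0 higher and 0 lower in CLE against ND and 1 higher in LU against ND, and the same 7 libraries without the block gave 0, 0 and 0. The latter setting and the sum by the table's own gene names were added after seeing the data. FPKM without read counts set the precision of low genes at an unknown depth.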

Other observations

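Several Wnt ligand genes are neighbours in the mouse genome, and the neighbours differed in level in epididymal fat. Wnt9a reached 2.91 FPKM, whereas Wnt3a, 16176 bases away on chromosome 11, did not exceed 0.0330 FPKM. Wnt10b reached 2.26 FPKM, and Wnt1, 11707 bases away on chromosome 15, did not exceed 0.0366 FPKM. In the pair of Wnt6 and Wnt10a on chromosome 1, 6194 bases apart, the highest values were 0.355 and 0.191 FPKM. Wnt9b and Wnt3, 24329 bases apart on chromosome 11, reached 0.344 and 0.0459 FPKM.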
